A study of Mus musculus with 24 samples.

Results

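Fat is stored in hepatocytes as lipid droplets, in which a core of triglyceride is wrapped in a single layer of phospholipid and coat proteins. The perilipins PLIN2 and PLIN5 and the CIDE proteins CIDEA and CIDEC sit on that coat, where perilipins limit or guide the access of lipases and CIDE proteins enlarge droplets by fusing them. Triglyceride is built by acyltransferases such as MOGAT1 and the phosphatidate phosphatase LPIN1, is broken down by the lipase PNPLA2 (ATGL), which G0S2 inhibits, and is fed by fatty acid uptake through CD36, while the nuclear receptor PPARG drives several of these genes in fatty liver. The 10 genes named here (Cidec, Cidea, Plin2, Plin5, Pnpla2, G0s2, Cd36, Mogat1, Pparg and Lpin1) were taken by their symbols from 15160 genes with counts in mouse liver. All 10 were among the 13336 genes that passed the filter on low counts, which asked for at least 0.666 CPM in 5 mice. Mogat1 and Cidea passed it only through the Con mice (8 and 5 Con mice over the limit, against 1 MR mouse each), so the filter chose them by the diet group in which they were high.

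The livers came from male mice of a 2 by 2 design of genotype and diet, given as 5 months old in the labels. Every mouse carried the floxed Nfe2l2 gene, which encodes the transcription factor NRF2. The WT mice (NRF2fl/fl) had no Cre, and the NRF2 KO mice (NRF2fl/(alb)) also carried Cre driven by the albumin promoter, which acts in hepatocytes and leaves the gene intact in other liver cells. No group had Cre without the floxed gene, so that an effect of Cre and of NRF2 loss cannot be told apart. The diets supplied elemental amino acids with methionine at 0.86% (Con) or 0.17% (methionine restriction, MR), were begun at 8 weeks of age and were fed freely for 8 weeks. A measurement of energy expenditure and 2 weeks of recovery followed before the mice were killed after a 4 h fast, and whether the diets ran on until then is not given in the sources used here. There were 5 WT mice on each diet and 6 NRF2 KO mice on each diet. A WT Con mouse (WT_CON_7604) and a WT MR mouse (WT_MR_7612) of the 24 deposited were left out as outliers. RNA was counted at the 3′ ends of transcripts, with 6197291 to 22068338 counts per mouse. Levels are CPM (counts scaled to a common library total) after TMM scaling, and a gene was called at an adjusted p under 0.05 in edgeR's quasi-likelihood test over all 13336 genes.

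One library did not carry the Nfe2l2 level of its group. The counts per gene do not show where the Nfe2l2 reads lie relative to the deleted part, so they do not test the deletion, but their level was higher in the NRF2 KO than in the WT libraries and separated the genotypes in all other mice. It was 106 to 125 CPM in 4 WT Con mice and 94.0 to 107 CPM in WT MR mice, against 228 to 339 CPM in NRF2 KO Con and at least 202 CPM in NRF2 KO MR mice. The study reports that the genotype of all mice was checked by real time PCR. With primers for the excised exon, it found less Nfe2l2 mRNA in NRF2 KO than in WT livers. The library labelled WT_CON_7607 had 324 CPM, which goes against its label. Nqo1, a classical NRF2 target chosen here after its values were seen, was at 1.59 CPM in that library, against 3.55 to 6.98 CPM in the other WT Con mice and 0.563 to 1.33 CPM in NRF2 KO Con mice. Nfe2l2 was higher in NRF2 KO than in WT mice by 123 CPM on the Con diet (exact permutation test, two-sided, p = 0.024, and 165 CPM with p = 0.0048 without that library) and by 126 CPM on MR (exact p = 0.0022, the smallest this design allows). Values are therefore given with and without the library labelled WT_CON_7607 for some results. Other values of the WT Con group include it. Hepatocyte markers such as Alb, at 52240 to 93640 CPM, matched the labelled tissue.

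MR changed 5 of the 10 genes in WT mice and 4 of the 10 in NRF2 KO mice, and in each genotype some rose while others fell. In WT mice Plin5, Pnpla2 and Lpin1 rose, where 6.91% of all genes rose, and Plin2 and Mogat1 fell, where 6.91% of all genes fell. Over either direction 13.8% of all genes were called in WT mice. In NRF2 KO mice Plin5 and Pnpla2 rose, against 6.23% of all genes, and Plin2 and Mogat1 fell, against 6.34%, with 12.6% of all genes called in either direction. Averaged over both genotypes, Plin5 and Pnpla2 rose (13.3% of all genes) and Plin2, Mogat1 and Cidea fell (14.1% of all genes), with 27.4% of all genes called. These counts include Mogat1, and the average also Cidea, which the filter had chosen through Con mice. The median log2 fold change of the 10 genes was -0.12 in WT and -0.27 in NRF2 KO mice, against -0.0062 and -0.0042 over all genes tested. When counts were scaled by library size alone, the median over all genes was 0.087 in WT and 0.152 in NRF2 KO mice, and the share of called genes that were higher moved from 50.0% to 73.2% in WT mice, from 49.6% to 86.1% in NRF2 KO mice and from 48.5% to 79.7% in the average. Under that scaling the directions given for Plin2, Plin5, Pnpla2, Mogat1 and Cidea with MR were kept.

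**Figure D1:**
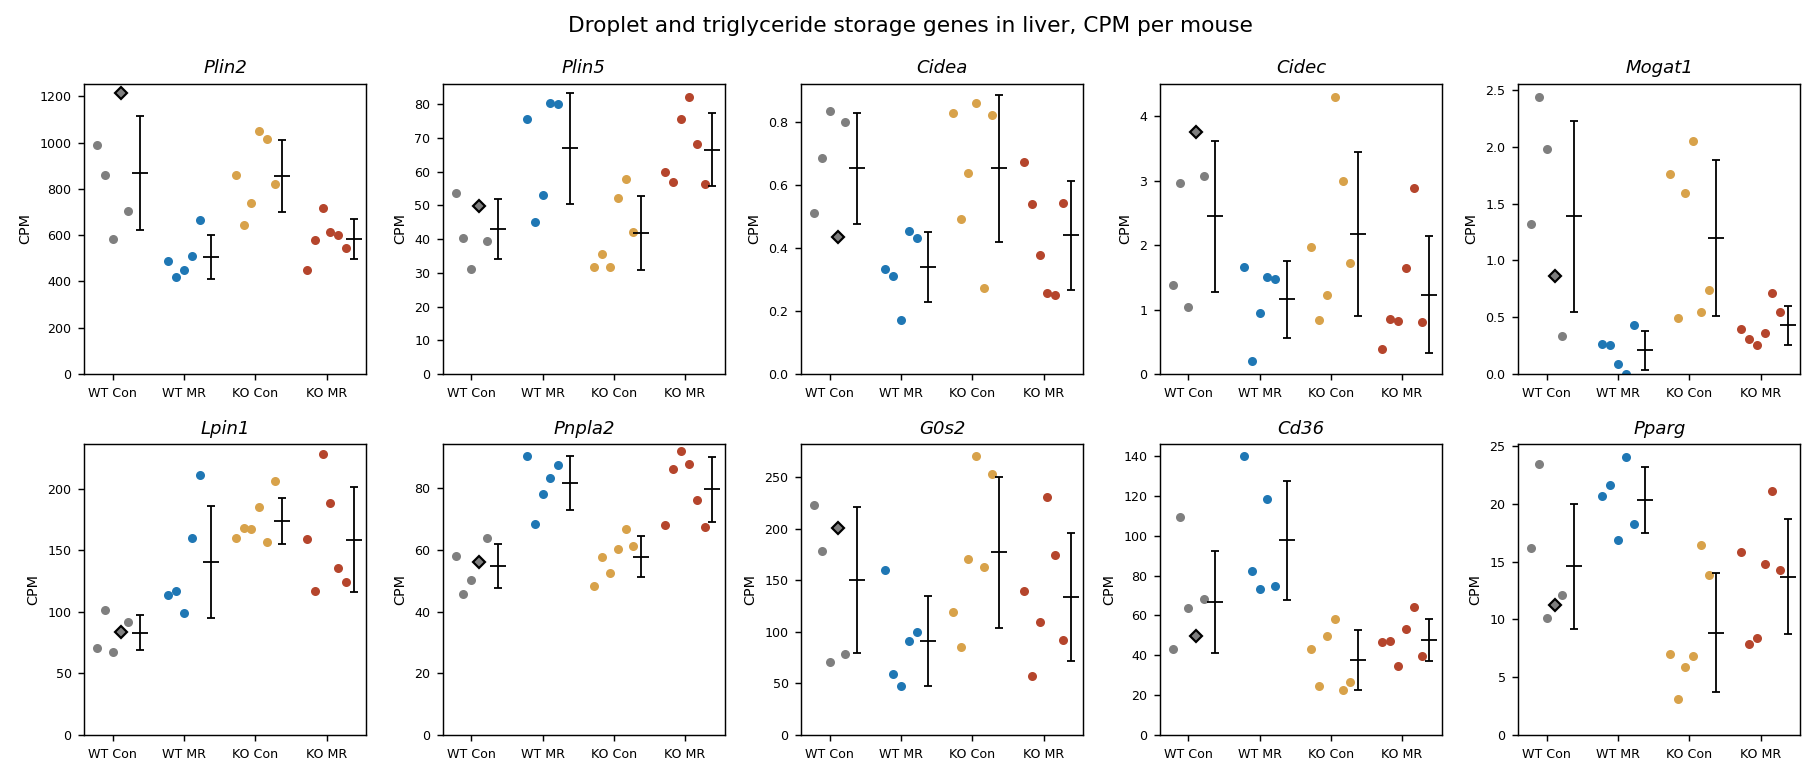
CPM of each gene in each mouse (linear axes from 0), by group; points are mice, the diamond with a black edge is the library labelled WT_CON_7607, and the bar to the right of each group is the mean with its SD. Pnpla2 in the MR groups (67.4 to 92.0 CPM) lies above every Con mouse, whereas Plin2 is lower and Plin5 higher on MR with overlapping groups.

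Both perilipins changed with MR, in opposite directions. Plin2, the perilipin that coats most droplets in hepatocytes and is stabilised by stored lipid, lies at chr4:86648386-86670060 (minus strand, GRCm38, as for all coordinates here). Its levels were 990, 858, 585, 1214 and 703 CPM in WT Con mice, the 1214 CPM being in the library labelled WT_CON_7607. In WT MR mice they were 488, 419, 449, 510 and 665 CPM. All but the lowest WT Con mouse lay above the highest WT MR mouse. In NRF2 KO Con mice Plin2 ran from 643 to 1048 CPM with a median of 839 CPM, and in NRF2 KO MR mice from 449 to 717 CPM with a median of 589 CPM. The fall on MR was -0.78 ± 0.17 (log2 fold change ± SE) in WT mice (edgeR adjusted p = 0.0041) and -0.55 ± 0.16 in NRF2 KO mice (edgeR adjusted p = 0.0231), which is 0.582-fold and 0.683-fold the Con level. Without the library labelled WT_CON_7607 the WT value was -0.63 and stayed called, and with a clock gene score as a covariate (described with Lpin1) it was -0.58 (adjusted p = 0.148). The NRF2 KO call was lost without KO_CON_7621 or KO_MR_7625 (NRF2 KO mice by diet and number), with adjusted p of 0.0562 to 0.0573, when counts were scaled by library size alone (-0.40, adjusted p = 0.118) and with the clock score as a covariate (-0.49, adjusted p = 0.0522).

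Plin5, the perilipin of oxidative tissues that ties droplets to mitochondria (chr17:56111601-56117596, minus strand), was at 53.7, 40.4, 31.2, 49.9 and 39.5 CPM in WT Con mice. It was at 75.7, 45.2, 53.2, 80.5 and 80.2 CPM in WT MR mice, where 3 of the 5 lay above every WT Con mouse. The NRF2 KO mice ran from 31.7 to 57.8 CPM on Con (median 38.9) and from 56.3 to 82.2 CPM on MR (median 64.2), overlapping at 1 Con mouse. Plin5 rose by 0.64 ± 0.19 on the log2 scale in WT mice (edgeR adjusted p = 0.0317) and by 0.67 ± 0.18 in NRF2 KO mice (edgeR adjusted p = 0.0155), or 1.56-fold and 1.60-fold. The WT call was lost, with adjusted p of 0.064 to 0.0831, when any of 6 mice was left out (WT_CON_7603, WT_CON_7605, WT_CON_7608, WT_MR_7609, WT_MR_7615 and WT_MR_7616), in a fit of the WT mice alone (adjusted p = 0.0588) and with the clock score as a covariate (0.80, adjusted p = 0.0867). Averaged over genotypes the rise was 0.66 ± 0.13 (edgeR adjusted p = 0.000869), and it kept its call in each fit that left out 1 mouse.

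The sequences before the start sites of the changed coat and lipolysis genes and of Lpin1 are shown because nuclear receptors of the PPAR family, which bind paired AGGTCA half-sites, are known to drive perilipin genes. The bases were read from RefSeq promoters on GRCm38.p6, which hold 250 bases before and 50 after each start, and are limited to bases outside every GENCODE M21 exon. Capitals mark AGGTCA on either strand (TGACCT on the other), and the sequences are Plin2 at chr4:86670061-86670309 (minus strand), Plin5 at chr17:56117597-56117798 (minus strand), Pnpla2 at chr7:141454938-141455187 (plus strand) and Lpin1 at chr12:16610967-16611216 (minus strand).
Plin2: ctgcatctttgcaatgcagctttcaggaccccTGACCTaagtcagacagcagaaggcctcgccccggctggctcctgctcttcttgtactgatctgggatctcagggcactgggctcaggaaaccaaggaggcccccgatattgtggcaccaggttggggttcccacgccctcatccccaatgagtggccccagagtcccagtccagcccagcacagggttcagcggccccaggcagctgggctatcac
Plin5: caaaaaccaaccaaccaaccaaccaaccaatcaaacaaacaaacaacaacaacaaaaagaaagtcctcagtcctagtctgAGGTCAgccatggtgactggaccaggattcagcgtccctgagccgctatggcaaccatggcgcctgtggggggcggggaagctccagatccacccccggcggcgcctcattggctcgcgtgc
Pnpla2: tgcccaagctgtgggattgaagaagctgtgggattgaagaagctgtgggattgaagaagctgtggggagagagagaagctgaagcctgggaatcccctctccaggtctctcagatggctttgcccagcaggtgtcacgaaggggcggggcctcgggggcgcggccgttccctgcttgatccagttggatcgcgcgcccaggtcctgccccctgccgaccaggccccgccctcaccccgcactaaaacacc
Lpin1: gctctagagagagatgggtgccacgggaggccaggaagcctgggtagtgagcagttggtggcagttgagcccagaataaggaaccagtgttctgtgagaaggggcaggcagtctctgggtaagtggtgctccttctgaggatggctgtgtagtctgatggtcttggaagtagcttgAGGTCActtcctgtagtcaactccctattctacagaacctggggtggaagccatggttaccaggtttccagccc
The half-site AGGTCA was present in 7 of the 13 promoters listed for 9 of the genes, 1 each of Plin2, Cd36 and Lpin1 and 2 each of Plin5 and Pparg, and in 16.3% of all 32851 promoters. It lay 218 to 213 bases before the start of Plin2, 170 to 165 before the upstream start of Plin5 and 74 to 69 before that of Lpin1. The direct repeat of 2 half-sites with 1 base between them (DR1), in which PPAR and RXR bind, was in none of the 13 and in 0.0396% of all promoters. The repeat with AGGNCA in place of AGGTCA was in none either, against 0.381% of all promoters. The ATF4 element TGATGNAA was in none of the 13 and in 3.97% of all promoters, and CACGTG, which clock proteins and other E-box factors bind, was found across the start of Plin2 and in 7.15% of all promoters. The promoters of Pnpla2, Mogat1, G0s2 and Cidec held no match to these motifs in the window, which says only that these letters are not there.

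Both CIDE genes had low counts. Cidea (chr18:67343604-67367785, plus strand) had 2 to 19 counts per mouse and fell by 0.81 ± 0.24 on the log2 scale averaged over genotypes (edgeR adjusted p = 0.0138), although neither genotype passed alone. Because it entered the test through Con mice, a lower level on MR was favoured by the filter. With no filter on low counts the value was -0.80 (adjusted p = 0.0182). Its level was 0.512, 0.684, 0.835, 0.434 and 0.798 CPM in WT Con mice and 0.332, 0.312, 0.173, 0.452 and 0.432 CPM in WT MR mice, where of the WT Con mice only the library labelled WT_CON_7607 overlapped the MR mice. In NRF2 KO mice it ran from 0.272 to 0.860 CPM on Con (median 0.729) and from 0.251 to 0.673 CPM on MR (median 0.459). Cidea with MR was 0.50-fold the Con level in WT mice (95% interval of the log2 fold change -1.76 to -0.24, edgeR adjusted p = 0.0711) and had a log2 fold change of -0.62 ± 0.31 in NRF2 KO mice (edgeR adjusted p = 0.192). Cidec (chr6:113424634-113435760, minus strand), a CIDE gene known to rise in fatty liver, was at 1.39, 2.97, 1.04, 3.76 and 3.07 CPM in WT Con mice and at 1.66, 0.208, 0.951, 1.51 and 1.47 CPM in WT MR mice. It ran from 0.845 to 4.30 CPM in NRF2 KO Con mice (median 1.84) and from 0.392 to 2.89 CPM in NRF2 KO MR mice (median 0.834), so the diets overlapped in both genotypes. Averaged over genotypes Cidec had a log2 fold change of -0.94 ± 0.36 (edgeR adjusted p = 0.0588), and it passed the threshold, with adjusted p of 0.0142 to 0.0493, without any of 4 mice (WT_CON_7602, WT_CON_7605, KO_CON_7618 and KO_MR_7631). It also passed with DESeq2 (-0.95, adjusted p = 0.0239) and with limma on the deposited normalized counts (-0.99, adjusted p = 0.0486). It did not pass without the library labelled WT_CON_7607 (-0.84, adjusted p = 0.106), with the clock score as a covariate (0.155) or with no filter on low counts (0.068). Neither genotype was called alone, at -1.14 ± 0.55 in WT (edgeR adjusted p = 0.176) and -0.74 ± 0.47 in NRF2 KO mice (edgeR adjusted p = 0.336).

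Of the triglyceride synthesis genes, Mogat1 fell with MR in both genotypes and Lpin1 rose with MR in WT mice. Mogat1 (chr1:78510991-78538173, plus strand), a monoacylglycerol acyltransferase that rises in steatotic liver, was near the limit of counting, with 18, 32, 38, 12 and 8 counts in WT Con mice and 4, 5, 1, 0 and 5 counts in WT MR mice. As CPM these were 1.39 ± 0.84 and 0.209 ± 0.17 CPM (mean ± SD, n = 5 each). NRF2 KO mice had 6 to 34 counts on Con (median 1.17 CPM) and 4 to 17 counts on MR (median 0.376 CPM), with overlap in both genotypes. The log2 fold change was -2.51 ± 0.57 in WT mice (edgeR adjusted p = 0.0052) and -1.47 ± 0.45 in NRF2 KO mice (edgeR adjusted p = 0.0309). Because Mogat1 entered the test through Con mice, a lower level on MR was favoured by the filter. With no filter on low counts the values were -2.52 (adjusted p = 0.00504) and -1.47 (adjusted p = 0.0336), and in a fit of the WT mice alone Mogat1 was not tested. The NRF2 KO call was lost, with adjusted p of 0.0564 to 0.0793, without any of 7 mice (KO_CON_7617, KO_CON_7620, KO_CON_7621, KO_MR_7625, KO_MR_7627, KO_MR_7628 and KO_MR_7629), with limma on the deposited normalized counts (adjusted p = 0.0992), with all 24 mice (adjusted p = 0.0522) and with the clock score as a covariate (adjusted p = 0.062). The WT call held in each fit that left out 1 mouse and was lost with the clock score as a covariate (-1.97, adjusted p = 0.12). Under that covariate the NRF2 KO log2 fold change was -1.33. Mogat1 shares part of its span with BC035947 on the other strand, and whether the counting used strand is not given in the sources used here.

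Lpin1, which makes diacylglycerol from phosphatidate and also acts as a coactivator in the nucleus (chr12:16535669-16610966, minus strand), was the only one of the 10 genes called between genotypes in the edgeR fit of 22 mice (Cd36 on MR was called by some alternatives, given with that gene). It was at 70.5, 101, 67.7, 83.5 and 91.9 CPM in WT Con mice and at 157 to 207 CPM in NRF2 KO Con mice (median 168), with no overlap. The library labelled WT_CON_7607, at 83.5 CPM, lay among the other WT Con mice for this gene. Lpin1 was 2.10-fold higher in NRF2 KO than in WT mice on Con (log2 fold change 1.07 ± 0.19, edgeR adjusted p = 0.00323), where 2.07% of all genes were called (276 genes, 38.8% of them higher, and 27.6% when scaled by library size alone, with 181 genes called without WT_CON_7603), and the call held in each fit that left out 1 mouse. On MR it was at 114, 117, 99.5, 160 and 211 CPM in WT mice and at 117 to 228 CPM in NRF2 KO mice (median 148), which overlapped, and the log2 difference between genotypes was 0.18 with a 95% interval of -0.20 to 0.56 (0.05 without KO_MR_7628 and 0.37 without WT_MR_7616). With MR Lpin1 rose by 0.76 ± 0.19 on the log2 scale in WT mice (edgeR adjusted p = 0.0122). In NRF2 KO mice its log2 fold change with MR was -0.13, with a 95% interval of -0.50 to 0.23 (-0.26 without KO_MR_7628 and -0.06 without KO_MR_7627), and turned to 0.03 when counts were scaled by library size alone. The interaction of genotype and diet for Lpin1 was -0.89 ± 0.26 (95% interval -1.43 to -0.35, edgeR adjusted p = 0.35), so a difference between the diet effects was not called. No gene of the 10 was called for the interaction by edgeR, DESeq2 or limma, Lpin1 was the 1 gene with an unadjusted p under 0.05 in edgeR, and 0.045% of all genes were called. That share is 6 genes, and it ranged from 3 (without WT_MR_7611, WT_MR_7616, KO_CON_7617, KO_CON_7618 or KO_MR_7625) to 12 (without the library labelled WT_CON_7607), with 10 or 11 without WT_CON_7605, WT_CON_7608, WT_MR_7613 or KO_MR_7632.

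Some clock genes were called in the comparisons in which Lpin1 was called, and some in those in which it was not. On Con, 4 of 7 genes that peak with Dbp (Dbp, Tef, Per3 and Ciart) were higher and 3 of 5 that peak with Arntl (Arntl, Npas2 and Clock) were lower in NRF2 KO than in WT mice, and with MR in WT mice 5 of the 7 rose (Dbp, Tef, Per3, Nr1d2 and Ciart) and 2 of the 5 fell (Arntl and Npas2). The remaining 2 of the 7 had log2 fold changes of -1.40 (Bhlhe41) and -0.22 (Nr1d1) there without a call. On Con the uncalled genes of the 7 had log2 differences of -0.61 (Bhlhe41), -0.14 (Nr1d1) and 0.40 (Nr1d2). Those of the 5 had 0.04 (Cry1) and -0.40 (Nfil3). Where Lpin1 was not called, Nr1d2 rose and Bhlhe41 fell with MR in NRF2 KO mice, and Clock was lower in NRF2 KO than in WT mice on MR. For MR averaged over genotypes Lpin1 was not called either (edgeR adjusted p = 0.0795). There 4 of the 7 rose (Tef, Per3, Nr1d2 and Ciart), 1 fell (Bhlhe41), and 2 of the 5 fell (Cry1 and Nfil3). Npas2 averaged 0.366 CPM over the 22 mice, under the filter's limit of 0.666 CPM, and its fitted level was highest in WT Con mice. Both of its calls may therefore rest on a gene that the filter chose through that group. Npas2 is also 1 of the 5 genes that peak with Arntl in the score below. A score was made per mouse as the mean z score of 7 genes that peak with Dbp minus that of 5 genes that peak with Arntl. It was -1.90 ± 1.19 in WT Con, -0.07 ± 0.79 in WT MR, 0.54 ± 0.25 in NRF2 KO Con and 1.10 ± 0.21 in NRF2 KO MR mice (mean ± SD). The NRF2 KO MR mice thus had the highest mean score, while their median Lpin1 (148 CPM) was below that of NRF2 KO Con mice (168 CPM) without a call. With the score as a covariate the Lpin1 difference on Con was 0.98 on the log2 scale (edgeR adjusted p = 0.204) and its rise with MR in WT mice was 0.69 (edgeR adjusted p = 0.142). The score of every NRF2 KO mouse lay above that of every WT Con mouse, so genotype and clock gene level on Con cannot be told apart. In WT mice the score ran from -3.70 to -0.55 on Con and from -1.24 to 0.92 on MR. It also holds genes that were themselves called with MR in WT mice. A WT diet call lost with the score as a covariate therefore does not tell diet and clock gene level apart. Per1, a clock gene, was among the 3 genes whose level was most like that of Lpin1 over the 22 mice (Pearson r = 0.811).

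**Figure D2:**
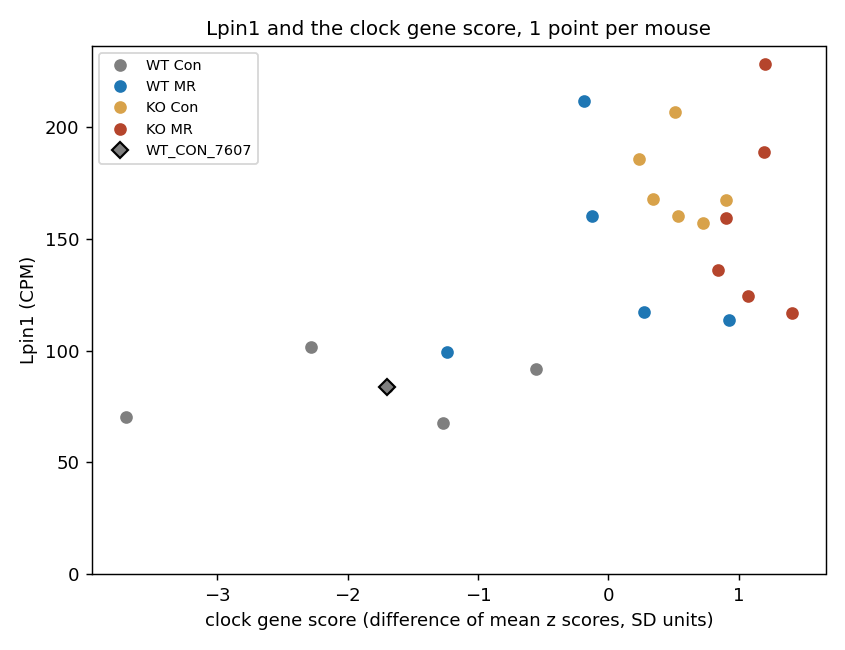
Lpin1 in CPM (vertical) against the clock gene score (horizontal, difference of mean z scores), 1 point per mouse, coloured by group, with the library labelled WT_CON_7607 as a diamond. WT Con mice sit at the low end of both axes, with Lpin1 at 67.7 to 101 CPM, and all 6 NRF2 KO Con mice sit at 157 CPM or more.

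On the lipolysis side, Pnpla2 rose with MR in both genotypes and its inhibitor G0s2 was not called. Pnpla2 (chr7:141455198-141460743, plus strand) encodes ATGL, the enzyme of the first step of triglyceride breakdown. It was at 58.1, 45.9, 50.2, 56.2 and 64.0 CPM in WT Con mice and at 90.6, 68.4, 78.1, 83.5 and 87.5 CPM in WT MR mice, without overlap. NRF2 KO mice had 48.4 to 66.7 CPM on Con (median 59.1) and 67.4 to 92.0 CPM on MR (median 81.2), again without overlap. The rise was 0.57 ± 0.11 on the log2 scale in WT mice (edgeR adjusted p = 0.00101) and 0.46 ± 0.098 in NRF2 KO mice (edgeR adjusted p = 0.00292), or 1.49-fold and 1.38-fold, and both calls held in each fit that left out 1 mouse. With the clock score as a covariate Pnpla2 was the only one of the 10 genes still called in WT mice (0.48, edgeR adjusted p = 0.0439). The score itself differed with diet in WT mice (mean -1.90 on Con and -0.07 on MR). The lost calls of the other genes therefore do not set Pnpla2 apart from them. G0s2 (chr1:193272161-193273217, minus strand) shares part of its span with Lamb3 on the other strand, and its levels spread widely within groups. It was at 223, 178, 71.1, 201 and 78.3 CPM in WT Con mice and at 160, 58.7, 47.8, 90.9 and 99.6 CPM in WT MR mice. In NRF2 KO mice it ran from 85.0 to 271 CPM on Con (median 167) and from 57.4 to 231 CPM on MR (median 124), so the diets overlapped in both genotypes. The log2 fold change of G0s2 with MR was -0.72 in WT mice, with a 95% interval of -1.62 to 0.19, and -0.40 in NRF2 KO mice, with a 95% interval of -1.22 to 0.42. The WT value was -0.29 (adjusted p = 0.851) with the clock score as a covariate, and the NRF2 KO value was -0.63 without KO_MR_7629 and -0.24 without KO_CON_7621.

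**Figure D3:**
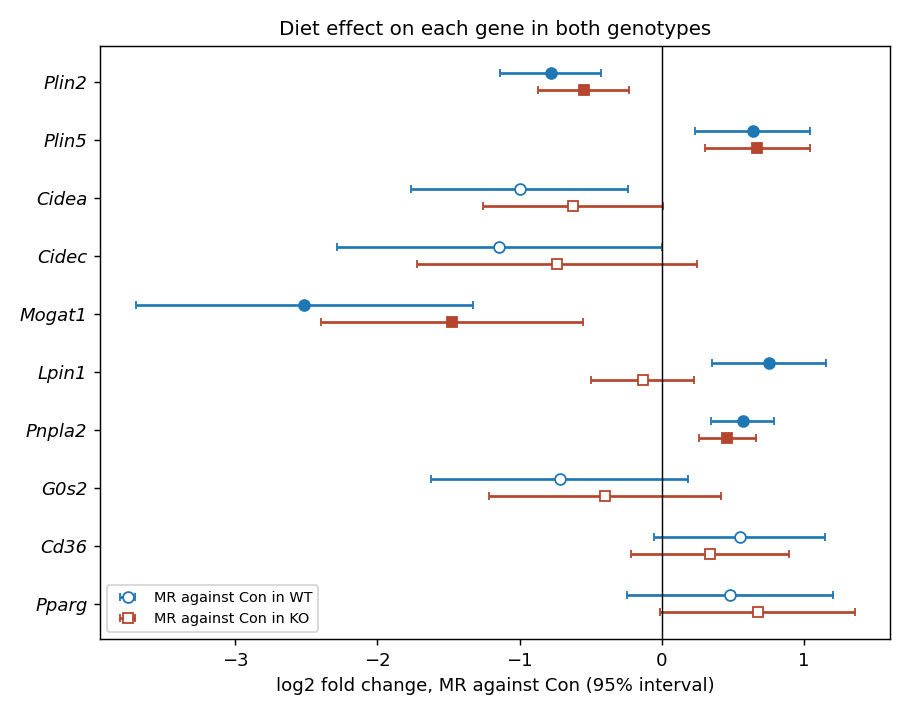
Log2 fold change with MR (horizontal) for each gene in WT (circles) and NRF2 KO mice (squares), with 95% intervals; filled symbols passed an adjusted p of 0.05 in edgeR. Plin2 and Mogat1 lie left of 0 and Plin5 and Pnpla2 right of it in both genotypes, and Lpin1 is filled in WT mice alone, a difference that the interaction test did not call (adjusted p = 0.35).

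Cd36 and Pparg were lower on average in NRF2 KO than in WT mice on both diets, without a call. Cd36, a fatty acid transporter of hepatocytes, macrophages and endothelium (chr5:17781690-17888801, minus strand), was at 43.2, 109, 63.7, 49.9 and 68.2 CPM in WT Con mice and at 22.5 to 58.4 CPM in NRF2 KO Con mice (median 34.8). On MR it was at 140, 82.3, 73.2, 119 and 75.0 CPM in WT mice and at 34.8 to 64.2 CPM in NRF2 KO mice (median 46.8), without overlap. The log2 difference between genotypes was -0.83 ± 0.28 on Con (edgeR adjusted p = 0.149) and -1.04 ± 0.28 on MR (edgeR adjusted p = 0.0586). None of the 10 genes was called on MR in the edgeR fit, where 1.93% of all genes were called and Cd36 was the 1 gene with an unadjusted p under 0.05. Cd36 on MR was called with DESeq2 (adjusted p = 0.0165), with all 24 mice (-1.08, adjusted p = 0.0337), in a fit of the MR mice alone (adjusted p = 0.0238), and without any of 3 Con mice (WT_CON_7603, KO_CON_7621 and KO_CON_7622, with adjusted p of 0.037 to 0.0466). Pparg (chr6:115360951-115490399, plus strand) was at 16.2, 23.4, 10.1, 11.3 and 12.1 CPM in WT Con mice and at 3.10 to 16.4 CPM in NRF2 KO Con mice (median 6.93), so the 2 groups overlapped. On MR it was at 20.7, 21.7, 16.9, 24.1 and 18.3 CPM in WT mice and at 7.88 to 21.1 CPM in NRF2 KO mice (median 14.5), where 1 NRF2 KO mouse lay among the WT mice. Its log2 difference between genotypes was -0.74 on Con, with a 95% interval of -1.46 to -0.03 and an edgeR adjusted p of 0.323, and -0.55 on MR, with a 95% interval of -1.24 to 0.14. The difference on Con was -0.38 (adjusted p = 0.82) with the clock score as a covariate. With MR the log2 fold change of Cd36 averaged over genotypes was 0.44 (95% interval 0.03 to 0.85, edgeR adjusted p = 0.101) and that of Pparg was 0.58 (95% interval 0.08 to 1.08, edgeR adjusted p = 0.079). These averages were called without WT_CON_7603 or KO_CON_7621 for Cd36 (adjusted p of 0.0316 to 0.0486) and without WT_CON_7603, KO_CON_7622 or KO_CON_7623 for Pparg (adjusted p of 0.0231 to 0.0429), and for both when counts were scaled by library size alone (0.0308 for Cd36 and 0.0316 for Pparg). These averages were 0.24 for Cd36 (adjusted p = 0.592) and 0.75 for Pparg (adjusted p = 0.132) with the clock score as a covariate. For the other 7 genes every 95% interval of the genotype difference held 0, and the intervals reached from -1.16 to 1.10 on Con and from -0.92 to 2.21 on MR.

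Within groups, Plin5 varied together with Plin2, Pnpla2, G0s2 and Cidec, and Cidec with Plin2. After group means were taken out, 5 of 45 pairs of genes were correlated at an adjusted p under 0.05 over 22 mice (100000 permutations within groups, two-sided). Plin2 and Plin5, which MR moved in opposite directions, had r = 0.758 and rho = 0.763 (permutation p = 0.00017 and 0.00028, adjusted 0.00765 and 0.0126), and r = 0.746 without the 2 mice farthest from the median. Plin5 was also correlated with Pnpla2 (r = 0.702, rho = 0.632, permutation p = 0.00083 and 0.00354, adjusted 0.0187 and 0.0319, r = 0.661 without the 2 farthest mice) and with G0s2 (r = 0.691, rho = 0.694, permutation p = 0.00126 and 0.00114, adjusted 0.0189 and 0.0256, r = 0.642 without them). Cidec was correlated with Plin5 (r = 0.657, rho = 0.644, permutation p = 0.00223 and 0.00321, adjusted 0.0251 and 0.0319, r = 0.582 without them) and with Plin2 (r = 0.627, rho = 0.666, permutation p = 0.00347 and 0.00221, adjusted 0.0312 and 0.0319, r = 0.561 without them). Without the library labelled WT_CON_7607, 3 pairs passed, those of Plin5 with Plin2, Pnpla2 and G0s2. Both Cidec pairs were lost, that with Plin2 at r = 0.605 and rho = 0.568 (permutation p = 0.00858 and 0.016, adjusted 0.0644 and 0.12) and that with Plin5 at r = 0.642 and rho = 0.587 (permutation p = 0.00407 and 0.0114, adjusted 0.0458 and 0.103). The other pairs among the coat and lipolysis genes were not called, Cidea having r of -0.305 to -0.136 with the other 5 and Pnpla2 with G0s2 having r = 0.213 (permutation p = 0.382, adjusted 0.54). Of the uncalled pairs, Plin2 and Cidec had positive r with G0s2 (0.558 and 0.516, permutation p = 0.0174 and 0.0249, adjusted 0.112 and 0.124) and with Pnpla2 (0.449 and 0.443, permutation p = 0.0565 and 0.0552, adjusted 0.212 each). The labels give no batch within which these could be recomputed. Cd36 and Pparg had r = 0.121 and rho = 0.073 (permutation p = 0.66 and 0.776, adjusted 0.782 and 0.855, r = 0.104 without the 2 farthest mice).

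Over the 22 mice, with group differences left in, the gene most like Plin5 among 8777 genes with a mean of at least 5 CPM was Pnpla2 (Pearson r = 0.872). Pnpla2 was most like Flot1 (r = 0.917) and Pck2 (r = 0.891), Plin2 was most like Hsd17b12 (r = 0.868), Cd36 was most like Hexa (r = 0.893), Pparg was most like Slc35f5 (r = 0.906) and Mogat1 was most like Bmyc (r = 0.89). These are descriptions over mice that share groups and library preparation. The nearest genes of Cidec (Cldn2, r = 0.811), Cidea (F8a, r = 0.773) and G0s2 (1810055G02Rik, r = 0.755) were less close.

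Of 73 other genes listed for these pathways, 67 were in the table and 66 were tested. MR raised 3 and lowered 6 of them in WT mice and raised 4 and lowered 8 in NRF2 KO mice, which is 9 and 12 of 66 beside 13.8% and 12.6% of all genes. Their median log2 fold change was -0.004 in WT and -0.034 in NRF2 KO mice. The lists were chosen with earlier results of these data known.

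Among 15 genes of triglyceride synthesis, 1 rose and 3 fell in each genotype. Gpat3, a glycerol phosphate acyltransferase of the endoplasmic reticulum, was at 7.56 ± 2.12 CPM in WT Con and 18.7 ± 6.01 CPM in WT MR mice (mean ± SD), and at 4.53 ± 1.55 and 13.6 ± 5.04 CPM in NRF2 KO mice. It rose by 1.31 ± 0.30 on the log2 scale in WT mice (edgeR adjusted p = 0.00724) and by 1.60 ± 0.29 in NRF2 KO mice (edgeR adjusted p = 0.00127), although with the 2 left-out mice included the WT value was 0.78 (adjusted p = 0.23). Agpat2, the next acyltransferase in the pathway, fell by 0.68 in WT and by 0.62 in NRF2 KO mice on the log2 scale (edgeR adjusted p = 0.0067 and 0.00718), from 201 to 125 CPM and from 173 to 113 CPM. With the clock score as a covariate the WT calls of Gpat3 (1.25, adjusted p = 0.092), Agpat2 (-0.40, adjusted p = 0.25) and Gpam (-0.54, adjusted p = 0.316) were lost. Gpat2, a mitochondrial acyltransferase with few counts in liver, fell by 1.38 in WT mice (from 2.64 to 1.00 CPM) and by 0.71 in NRF2 KO mice (from 1.83 to 1.13 CPM). Gpam, the main mitochondrial acyltransferase of liver, fell by 0.74 in WT mice and Gpd1, which supplies glycerol phosphate, fell by 0.34 in NRF2 KO mice. Without a call, mean Gpam was 7.10 and 5.53 CPM in NRF2 KO mice on Con and MR. Mean Gpd1 was 213 and 199 CPM in WT mice, also without a call. Scaled by library size alone, Gpam (adjusted p = 0.0579), Gpd1 (0.162) and Gpat2 in NRF2 KO mice (0.0864) lost their calls, as did Gpam with all 24 mice (0.119) and in a fit of the WT mice alone (0.067). Without WT_CON_7603 the log2 fold change of Gpam in WT mice was -0.46. Gpam lost its call, with adjusted p of 0.055 to 0.124, without any of 5 mice (WT_CON_7603, WT_MR_7609, WT_MR_7611, WT_MR_7613 and WT_MR_7615), and Gpat2 in NRF2 KO mice, with 0.052 to 0.0987, without any of 6 (KO_CON_7617, KO_CON_7618, KO_MR_7625, KO_MR_7629, KO_MR_7631 and KO_MR_7632). Dgat1, which closes the pathway, had log2 fold changes of 0.11 and 0.03 without a call.

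**Figure D4:**
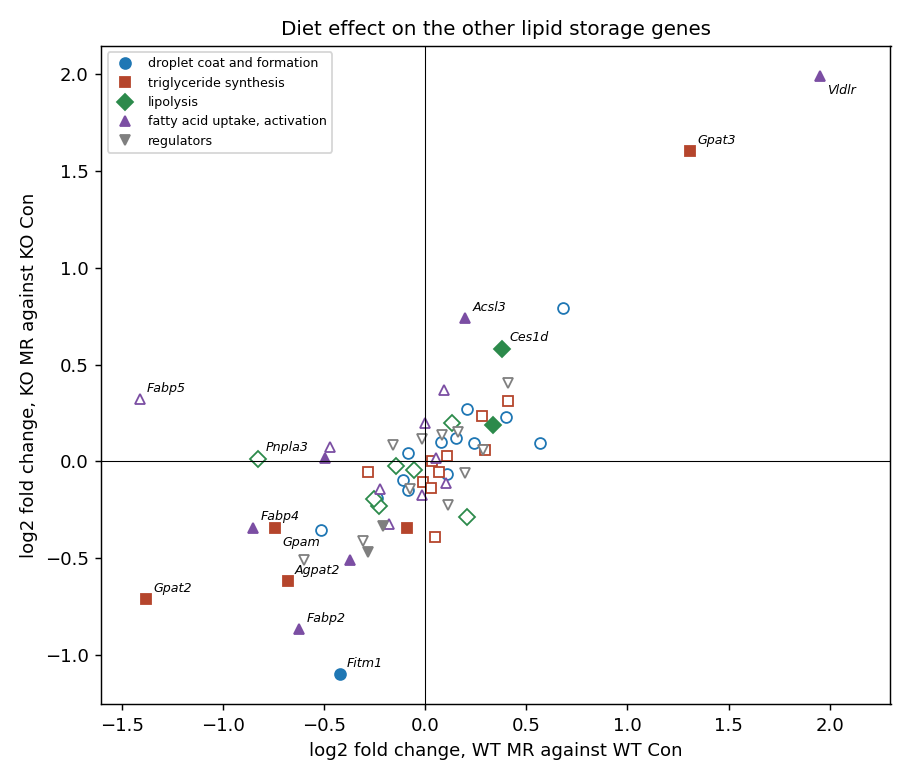
Log2 fold change with MR in WT mice (horizontal) against that in NRF2 KO mice (vertical) for the 66 other genes, with shape and colour by list; filled symbols were called in at least 1 genotype. Vldlr (1.95 and 1.99) and Gpat3 (1.31 and 1.60) stand apart at the upper right, and Gpat2, Agpat2 and Fabp2 lie at the lower left.

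Of 15 genes of fatty acid uptake and activation, 1 rose and 3 fell in WT mice and 2 rose and 2 fell in NRF2 KO mice. Vldlr, the receptor that brings triglyceride-rich lipoproteins into cells, rose in both genotypes. It was at 4.32 ± 1.97 CPM in WT Con and 16.8 ± 9.07 CPM in WT MR mice and at 5.68 ± 1.76 and 22.8 ± 7.68 CPM in NRF2 KO mice, a rise of 3.86-fold and 3.97-fold (edgeR adjusted p = 0.00453 and 0.00158). With the clock score as a covariate the WT log2 fold change of Vldlr was 1.23, against 1.95 without it, and was not called (adjusted p = 0.221). Fabp2 fell in both genotypes (log2 fold change -0.62 and -0.86), Fabp4 fell in WT mice (-0.85) and Fabp1, the main fatty acid binding protein of hepatocytes, fell in NRF2 KO mice (-0.51). Of the acyl-CoA synthetases, Acsl5 fell in WT mice (-0.49) and Acsl3, which works at nascent droplets, rose in NRF2 KO mice (0.74, from 40.2 to 66.8 CPM). Without a call, Fabp4 had a log2 fold change of -0.34 in NRF2 KO mice. Mean Fabp1 was 6922 CPM on Con and 5345 CPM on MR in WT mice, also without a call. Mean Acsl5 in NRF2 KO mice (306 and 309 CPM) and mean Acsl3 in WT mice (44.0 and 50.65 CPM) were not called for MR either. Fabp2 in WT mice lost the call, with adjusted p of 0.0629 to 0.122, without any of 6 mice (WT_CON_7602, WT_CON_7603, WT_CON_7605, WT_MR_7611, WT_MR_7613 and WT_MR_7616). Fabp1 in NRF2 KO mice lost it, with 0.0616 to 0.0997, without any of 8 (KO_CON_7621, KO_CON_7622, KO_CON_7623, KO_MR_7625, KO_MR_7627, KO_MR_7628, KO_MR_7629 and KO_MR_7631). With the clock score as a covariate Fabp2 (-0.55, adjusted p = 0.264) and Acsl5 (-0.31, adjusted p = 0.261) lost their calls in WT mice. Fabp1 (-0.36, adjusted p = 0.102) lost its call in NRF2 KO mice. The Fabp2 value stayed about as large, and the other 2 were smaller. Scaled by library size alone, Fabp2 in WT mice (0.108) and Fabp1 in NRF2 KO mice (0.0999) lost them, as did Fabp2 in a fit of the WT mice alone (0.103) and Fabp1 with all 24 mice (0.0996). In lipolysis, Pnpla8 rose in WT mice by 0.33 and Ces1d in NRF2 KO mice by 0.58, the latter with near-identical neighbours that 3′ reads may not separate and with the call lost (adjusted p of 0.0617 to 0.0896) without any of 8 mice (KO_CON_7617, KO_CON_7618, KO_CON_7620, KO_CON_7621, KO_MR_7625, KO_MR_7628, KO_MR_7629 and KO_MR_7632) and with all 24 mice (0.0886). Without a call, mean Pnpla8 was 63.4 and 72.25 CPM in NRF2 KO mice on Con and MR. Mean Ces1d was 266 and 347 CPM in WT mice, also without a call. Abhd5, the activator of ATGL, had log2 fold changes of -0.05 and -0.04. Of 13 regulators, none was called in WT mice by edgeR (4 had an unadjusted p under 0.05), and Cebpa (-0.47) and Creb3l3 (-0.33, not called when scaled by library size alone, adjusted p = 0.173) fell in NRF2 KO mice. In WT mice on Con and MR, mean Cebpa was 250.5 and 206 CPM and mean Creb3l3 was 392.5 and 340 CPM.

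Fitm1, which helps droplets bud from the endoplasmic reticulum, had the largest called genotype difference among the 66 genes. It was at 28.8, 36.4, 40.3, 7.73 and 30.4 CPM in WT Con mice, of which the 7.73 CPM was in the library labelled WT_CON_7607. In NRF2 KO Con mice it ran from 6.54 to 14.6 CPM (median 10.8), below the other 4 WT Con mice. On MR it ran from 13.1 to 28.4 CPM in WT mice (median 23.7) and from 2.39 to 10.2 CPM in NRF2 KO mice (median 4.52), without overlap. Of the 66 genes, 3 were called between genotypes on Con, beside 2.07% of all genes, and 1 on MR, beside 1.93%. Fitm1 was lower in NRF2 KO mice by 2.06 ± 0.37 on the log2 scale on MR (edgeR adjusted p = 0.00311). This call held in each fit that left out 1 mouse. On Con the log2 difference was -1.39 ± 0.34 (edgeR adjusted p = 0.0397), was -1.63 without the library labelled WT_CON_7607, and lost its call in 11 of the fits that left out 1 mouse (adjusted p of 0.0503 to 0.0952; WT_CON_7602, WT_CON_7603, WT_CON_7605, WT_CON_7608, KO_CON_7617, KO_CON_7618, KO_CON_7620, KO_CON_7622, KO_CON_7623, KO_MR_7625 and KO_MR_7631) and with limma (adjusted p = 0.119), all 24 mice (0.135), a fit of the Con mice alone (0.114) and the clock score as a covariate (0.366). With MR Fitm1 fell by 1.10 in NRF2 KO mice (edgeR adjusted p = 0.0498, and 0.0116 without the library labelled WT_CON_7607). This call was lost in 18 of the 22 fits that left out 1 mouse, all but those without WT_CON_7607, WT_MR_7609, KO_CON_7622 or KO_MR_7632. It was also lost with DESeq2 size factors (0.0503), no filter on low counts (0.0588), the clock score (0.0795) and all 24 mice (0.131). With the clock score the Fitm1 values were -1.16 on Con and -1.05 with MR in NRF2 KO mice, against -1.39 and -1.10 without it. Fitm1 overlaps the antisense gene Gm15932. On Con, Nr1h4 (the bile acid receptor FXR) was higher in NRF2 KO mice by 0.48 (edgeR adjusted p = 0.00304) and Dgat2 by 0.47 (edgeR adjusted p = 0.042, but 0.38 with an adjusted p of 0.0924 without the library labelled WT_CON_7607). The Dgat2 call was also lost without any of 9 others (WT_CON_7602, WT_CON_7608, KO_CON_7617, KO_CON_7618, KO_CON_7620, KO_CON_7621, KO_MR_7625, KO_MR_7628 and KO_MR_7631) and in a fit of the Con mice alone (adjusted p = 0.216). With the clock score as a covariate neither Nr1h4 (0.53, adjusted p = 0.152) nor Dgat2 (0.45, adjusted p = 0.353) was called on Con. Both log2 differences stayed about as large as without it.

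**Figure D5:**
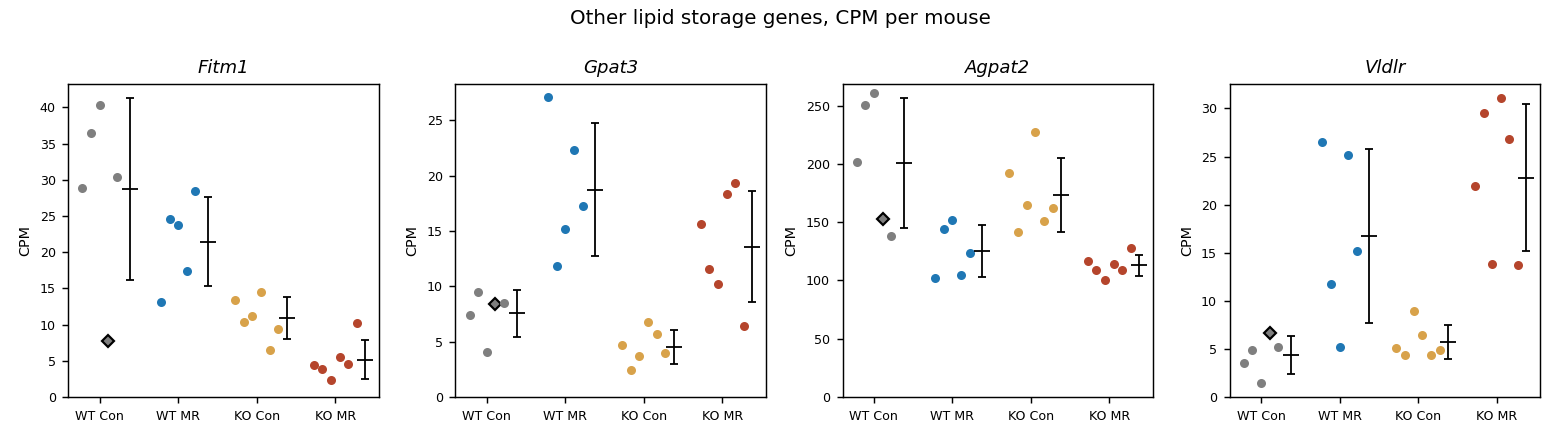
CPM per mouse of Fitm1, Gpat3, Agpat2 and Vldlr by group (linear axes from 0), with the mean and SD beside each group and the library labelled WT_CON_7607 as a diamond. For Fitm1 that library (7.73 CPM) sits with the NRF2 KO mice, and on MR all NRF2 KO mice lie below all WT mice.

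Of 14 other droplet coat and formation genes, 0 were called with MR in WT mice by edgeR (5 had an unadjusted p under 0.05) and 1, Fitm1, in NRF2 KO mice. Averaged over genotypes, 12 of the 66 genes rose and 12 fell, beside the 27.4% of all genes. Those called only in this average included Sqle (0.74), Plin3 (0.24), Hsd17b13 (0.31), Lpin2 (0.36) and Ppargc1b (0.41), which rose, and Cideb (-0.21), which fell.

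Markers of other liver cells moved with the diet, and in bulk liver fewer cells of a type and less RNA per cell cannot be told apart. Beside the counts given here, 6.91% of all genes fell with MR in WT mice, 6.34% in NRF2 KO mice and 14.1% in the average. In NRF2 KO mice 6.23% of all genes rose. Of 10 macrophage markers tested, 5 fell with MR in WT mice (Cd5l, Csf1r, Cd68, Lyz2 and Gpnmb) and 0 in NRF2 KO mice by edgeR, where Adgre1 and Csf1r had an unadjusted p under 0.05. In NRF2 KO mice 1 of the 10 had a positive log2 fold change with MR. For the interaction 0 of the 10 were called, so a genotype difference in the diet effect was not called. Gpnmb passed the filter on low counts mainly through Con mice (7 over the limit, against 2 MR mice). The summed level of the macrophage markers was 410 CPM on Con and 300.1 CPM on MR in WT mice, and 365 and 318 CPM in NRF2 KO mice. Of the WT Con mice, the library labelled WT_CON_7607 had the highest macrophage sum (504 CPM, against 341 to 474 CPM in the others). Cd5l was the most abundant of them, and Trem2 and Gpnmb, which mark lipid-associated macrophages, were at 0 in at least 1 mouse. Of 8 stellate markers, 5 fell in WT mice (Lrat, Dcn, Col1a1, Col3a1 and Colec11) and 4 of these, all but Dcn, in NRF2 KO mice. The stellate sum, most of it Dcn, was 565 and 420 CPM in WT and 527 and 468 CPM in NRF2 KO mice on Con and MR. It was 696 CPM in the library labelled WT_CON_7607 and 436 to 710 CPM in the other WT Con mice. The 7 endothelial markers summed to 310 CPM in each WT group and to 315 and 328 CPM in the NRF2 KO groups, where Kdr rose. Of 8 hepatocyte markers, Apoa1 fell with MR in both genotypes, and Alb and Ttr fell in the average over genotypes. The hepatocyte sum was 109700 and 88970 CPM in WT and 126100 and 111400 CPM in NRF2 KO mice on Con and MR. Of 10 adipocyte markers, Lep, Plin1 and Retn were not listed in the table and Adipoq had 0 to 22 counts per mouse. Of 5 tested, Fabp4 and Adrb3 fell with MR in WT mice. The adipocyte sum was nearly all Car3, which hepatocytes also express, at 5968 and 2907 CPM in WT and 6977 and 3965 CPM in NRF2 KO mice on Con and MR. Without Car3, a sum chosen after the values were seen, it was 42.1 and 26.8 CPM in WT and 41.0 and 32.4 CPM in NRF2 KO mice. Between genotypes, Adrb3 was 4.01-fold and Apoa1 1.42-fold higher in NRF2 KO than in WT mice on MR (edgeR adjusted p = 0.00404 and 0.00246). The part of these cells in the changes of Plin2, Cd36 and Fabp4, which such cells also express, was not tested.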

How the data were processed

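Per the study's methods, libraries were made with the Lexogen QuantSeq 3′ mRNA kit, and the authors mapped and counted the reads with a QuantSeq pipeline. The labels give GRCm38 (mm10) as the build, and the submitters' processing notes name R 3.4.3 and DESeq2 1.18.1. The deposited counts are whole reads per gene for 24 mice, and the deposited normalized counts are those counts divided by a size factor per library, a signal without length correction. The study left out a WT Con and a WT MR outlier, taken here to be WT_CON_7604 and WT_MR_7612.

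Counts of 22 mice were filtered with filterByExpr, scaled by TMM and fitted with edgeR 4.0.16 (robust quasi-likelihood, 1 mean per group, Benjamini-Hochberg over all genes). The contrasts were MR in each genotype, genotype on each diet, the interaction, and MR averaged over genotypes. On data simulated for the contrast of MR in WT, 157 of 199 genes changed 2-fold were called, with 10 false calls among 13194 genes. Totals of 6197291 to 22068338 counts limit precision for genes of a few counts such as Mogat1. Log2 CPM for correlations used a prior count of 2. Replicates are mice by the labels, and no pair of mice in a group agreed within sampling noise. Alternatives were other scalings and filters, DESeq2, limma on log2 of the deposited normalized counts plus 1, all 24 mice, only the groups compared, a clock score covariate and leaving out each mouse. Coordinates came from GENCODE M21, with promoters from RefSeq. The named genes are the 10 members and each listed pathway gene that passed the threshold, with others named for their place in the pathway. The members, the pathway and marker lists and the tests were chosen with earlier results of these data known.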

Additional observations from a re-analysis of the deposited data

Results flagged for a closer look

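Nfe2l2 in the library labelled WT_CON_7607, at 324 CPM, stood apart from the other 4 WT Con mice (106 to 125 CPM): the gap to its nearest neighbour was 0.914 of the whole range of the group. It was the 1 value to stand apart in this way among 44 groups of values (the 10 genes and Nfe2l2 in 4 groups). If chance gives about 1 in 20, then 1 in 44 is by this rule alone no more than chance would give.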

How the results depend on the processing

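No paired analysis was possible because the mouse numbers are not shared between groups. Of 532 values of single genes under the named alternatives, 480 kept their direction and their side of the threshold, 41 lost and 10 gained a call, and 1 turned, Lpin1 with MR in NRF2 KO mice (0.025 when scaled by library size alone). The same scaling gave 8 of the 10 genes called for MR averaged over genotypes. There 3622 of all 13336 genes were called higher and 922 lower, against 1768 and 1880 with TMM. That scaling also gave 2 other pathway genes for genotype on MR, with 82 of all genes higher and 161 lower (74 and 184 with TMM). With at least 10 counts required in every mouse, 3 of the 10 genes were called for averaged MR, since low genes left the test. With the clock score as a covariate, 1 of the 10 genes was called for MR in WT mice, 2 were called for MR in NRF2 KO mice and 0 for genotype on Con, and other pathway genes called were 5, 1, 2 and 12 for MR in WT, genotype on Con, genotype on MR and averaged MR. All 24 mice gave 1 of the 10 genes and 2 others for genotype on MR. Fits of only the groups compared gave 3 of the 10 genes for MR in WT (Plin5 lost its call, and Mogat1 and Cidea did not pass the filter there) and 1 for genotype on MR, with 1 other gene for genotype on Con and 5 for genotype on MR. DESeq2 gave 1 of the 10 genes for genotype on MR, with 5 others on Con and 3 on MR, and limma gave 2 others on MR. The cause of these changes was not tested, apart from the filter. For the other alternatives the share of all genes called is not given beside these counts. They are therefore not read as results about the genes.

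Leaving out each mouse gave 2 to 4 of the 10 genes for MR in NRF2 KO mice (2 without KO_CON_7621 or KO_MR_7625), 0 to 1 for genotype on MR, 1 to 3 other genes for genotype on Con and 1 to 2 for genotype on MR. It gave 4 to 5 of the 10 genes for MR in WT mice, 1 to 1 for genotype on Con and 5 to 7 for averaged MR. In the same fits all genes called numbered 1188 to 2027 for MR in NRF2 KO and 1416 to 1974 for MR in WT mice. They numbered 181 to 314 for genotype on Con, 191 to 336 for genotype on MR and 3336 to 3889 for averaged MR. These shifts are therefore not read as results about the 10 genes or the others. Co-varying pairs numbered 3 without the library labelled WT_CON_7607. Intervals and floors here cover counting and mouse-to-mouse error only. Depth limits Mogat1, Cidea and Cidec, whose counts fell below 10 in some mice.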

Other observations

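The 2 mice left out differed from their groups in some of these genes. On the scale of all 24 mice, Cidec was at 34.5 CPM (574 counts) in WT_CON_7604 and at 5.20 CPM (124 counts) in WT_MR_7612, against at most 4.33 CPM in the other 22 mice. Adipoq had 1 and 2 counts in these livers. Lpin1 was at 46.7 CPM in WT_CON_7604 and 189 CPM in WT_MR_7612, Pparg was at 20.1 and 31.8 CPM, and Plin2 was at 1050 and 611 CPM. With these mice included, Cidea with MR in WT mice was called (-0.98 on the log2 scale, edgeR adjusted p = 0.0481), and Mogat1 with MR in NRF2 KO mice was not (edgeR adjusted p = 0.0522).

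Of the uptake genes, Fabp5 had a log2 fold change with MR of -1.41 in WT mice (edgeR adjusted p = 0.104), from 11.2 to 4.24 CPM, and its log2 fold change in NRF2 KO mice was 0.32 (edgeR adjusted p = 0.708). Pnpla3 was at 1.84 and 0.949 CPM in WT mice and at 3.36 and 3.41 CPM in NRF2 KO mice, without a call for diet (edgeR adjusted p = 0.354 and 0.987).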
